A study of Mus musculus with 3 samples.

Results

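The liver of wild-type mice 24 h after lipopolysaccharide with D-galactosamine (LPS/GalN) was described here from a single microarray, 1 of 3 in the study. The array carried liver RNA of treated wild-type mice in the Cy3 channel and liver RNA of untreated wild-type mice, the reference, in the Cy5 channel. The description rests on 10179 named genes that all 3 arrays measured, out of 12338 named genes measured on the treated wild-type array. The other 2159, which were blank on at least one other array, are described apart at the end.

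All mice were female C57BL/6 mice. Treated wild-type mice were given LPS (3 ng) together with D-(+)-galactosamine (10 mg) into the peritoneum and gave liver 24 h later. The other arrays held untreated TMX-/- liver and TMX-/- liver after the same treatment, each against untreated wild-type liver in Cy5. TMX is a thioredoxin-related membrane protein of the endoplasmic reticulum, encoded by Tmx1. The labels give no age, no time of day, and no number of mice or pooling behind a channel. The dosing text stands on all 3 samples, also on the one labelled untreated.

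Every value is a log2 ratio, so 1 means 2-fold higher and -1 means 2-fold lower than the reference. Values were centred so that the median of the 10179 genes is 0. The deposited table does not state which channel is the numerator. Sample over reference is likely, because Tmx1 stood at -2.96 and -3.88 on the untreated and treated TMX-/- arrays and at 0.59 on the treated wild-type array. With the opposite numerator every direction given here turns. The base of the logarithm is read as 2, and if it were natural each value would be multiplied by 1.44. With 1 array a group there is no replicate and no test. The spread between probes of the same gene is the error at hand. Over 81 genes with 2 probes it gave an SD of 0.42 for 1 probe, and those pairs correlated with r = 0.31 across genes.

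A further value is given beside most ratios, that of treated wild-type liver over untreated TMX-/- liver, taken as the difference of their arrays. In it the reference RNA and a gene's dye effect cancel if the reference was 1 preparation, while the genotype differs. It shares the treated array with the main ratio, so the pair are values side by side and not independent measurements.

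LPS is a bacterial cell wall component that Toll-like receptor 4 recognises on macrophages, above all on Kupffer cells, the resident macrophages of the liver. Galactosamine is metabolised by hepatocytes at the expense of their uridine nucleotides, which slows transcription and leaves them sensitive to tumour necrosis factor. The combination is a standard model of acute liver injury, in which cytokines drive an acute phase response in surviving hepatocytes, apoptosis and necrosis in others, and later regeneration.

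Most genes lay close to the reference. Of the 10179 genes, 8351 (82.0%) lay within 1.5-fold of it, and the percentiles 5 and 95 were -0.70 and 0.81. At 2-fold, 285 genes (2.8%) were higher and 178 (1.75%) lower. Over untreated TMX-/- liver these counts were 212 (2.08%) and 202 (1.98%). Genes of olfactory, vomeronasal and taste receptors, which are not known to be used in the liver, show what the array gives where little message should be present. Of 167 with a value, 8 were higher and 10 lower at 2-fold (10.8% in all), between -1.43 and 1.54, around a median of -0.24. Single ratios of that size therefore also occurred among genes without a known place in liver, and no signal intensity was at hand to set dim genes aside. These receptors are why gene groups and the far ends of the distribution are given more room below than single genes near 2-fold.

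**Figure D1:**
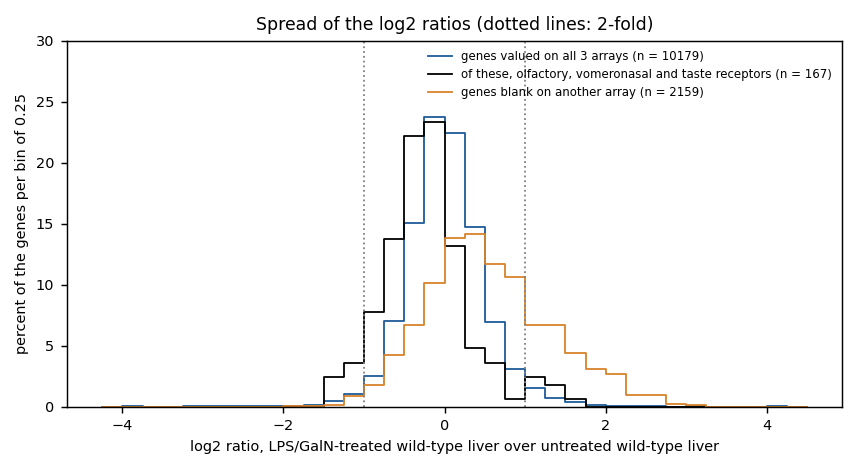
Distribution of the log2 ratios of LPS/GalN-treated over untreated wild-type liver, as the percent of genes in each bin of 0.25, for the 10179 genes valued on all 3 arrays, for the 167 olfactory, vomeronasal and taste receptors among them, and for the 2159 genes blank on another array. Dotted lines mark 2-fold. The medians are 0 for all genes, -0.24 for the receptors and 0.47 for the genes blank on another array.

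Saa3, an inducible serum amyloid A of the acute phase, had the highest ratio of all, 4.22 or 18.7-fold, and 4.004 over untreated TMX-/- liver. On the untreated TMX-/- array it stood at 0.22 and on the treated TMX-/- array at 1.0004, so that both treated livers lay above both untreated ones. Cdkn1a, the gene of p21, a brake on the cell cycle, stood at 3.18 (9.09-fold) and at 2.99 over untreated TMX-/- liver. Egr1, a transcription factor switched on early by stress, stood at 2.68 and 3.11 in these comparisons. Orm2, an acute phase glycoprotein, stood at 2.38 and 1.99, and Serpina7, the thyroxine-binding globulin gene, at 2.30 and 2.31. Tcte3, named for its expression in testis, stood at 2.34 and 2.73. All 6 genes stood at 1.99 or more over either untreated liver.

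Other genes among the 25 highest depended on which untreated liver was used. Ear6 and Rnase2b, ribonucleases of the eosinophil type, stood at 2.08 and 2.03 over untreated wild-type liver and at 0.46 and 0.40 over untreated TMX-/- liver. Clec4a3, a lectin receptor of myeloid cells, stood at 1.83 and 0.00. Vsig4 and Cd5l, both products of Kupffer cells, stood at 1.81 and 1.77, and at 0.52 each over untreated TMX-/- liver. Thy1, a surface protein of T cells and fibroblasts, stood at 1.85 and 0.80. Untreated TMX-/- liver itself lay above the wild-type reference for these genes, and whether that comes from that liver or from the shared reference cannot be told apart.

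At the lower end stood the gene of hepcidin, the hormone of iron balance, Hamp (-3.99, 15.9-fold lower), and its near copy Hamp2 (-3.80). Over untreated TMX-/- liver they stood at -2.72 and -2.79. B3gnt4, a glycosyltransferase, stood at -3.11, and Acot3, a peroxisomal acyl-CoA thioesterase, at -2.99. Gpcpd1, a glycerophosphocholine phosphodiesterase, stood at -2.73 and was lower still over untreated TMX-/- liver, at -2.997. Cyp17a1, a steroid hydroxylase, stood at -2.58, Cyp8b1, the sterol 12-alpha-hydroxylase of bile acid synthesis, at -2.44, and Eci3, an enoyl-CoA isomerase, at -2.37. Each of these genes was at least 4-fold lower over untreated TMX-/- liver too. F3, tissue factor, stood at -2.09 and -2.06, and Pde4b, a cyclic AMP phosphodiesterase of inflammatory cells, at -2.21 and -1.74. Krtap4-2, a hair keratin-associated protein gene, stood at -2.94, but its mean was -1.63 where a further probe, valued on the treated wild-type array and blank on another, was included.

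**Figure D2:**
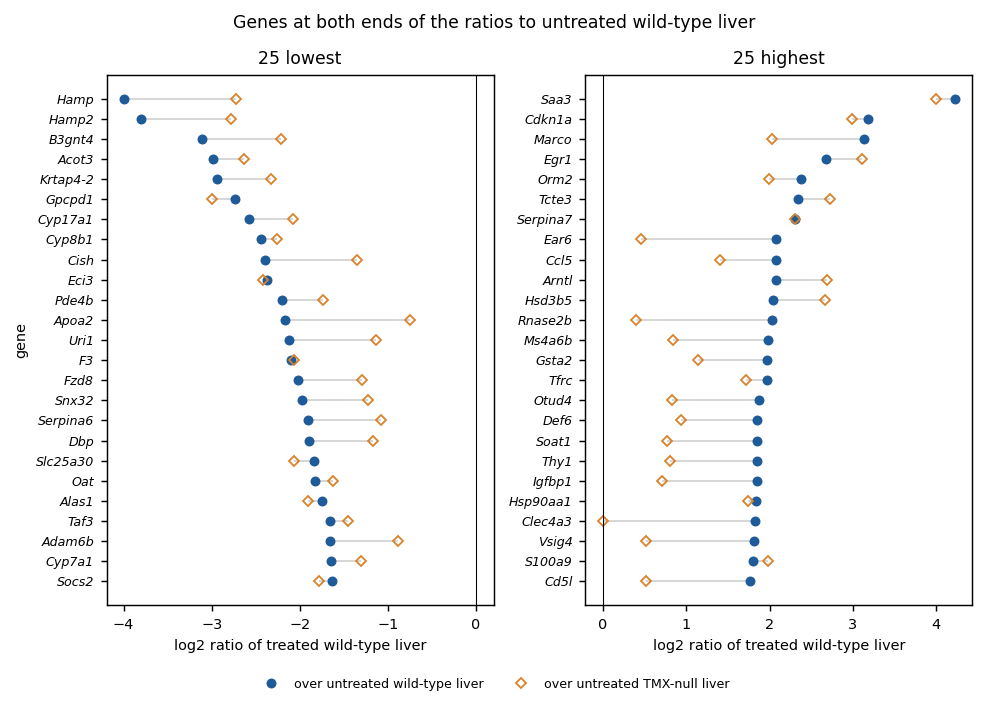
The 25 lowest and 25 highest genes of LPS/GalN-treated wild-type liver, 1 row a gene, on the log2 scale. Filled circles give the ratio to untreated wild-type liver and open diamonds the ratio to untreated TMX-/- liver, both from 1 treated array. The diamond of Clec4a3 lies at 0.00 and that of Saa3 at 4.004. No diamond of the 25 lowest reaches 0.

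The genes were next described by 74 lists of processes, gene families and cell type markers, which together hold 1773 of the 10179 genes. Of the 285 higher genes 102 stood in a list, and of the 178 lower genes 66. Each list's median is to be read against 0, the median of all genes, and its counts against 2.8% higher and 1.75% lower.

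**Figure D3:**
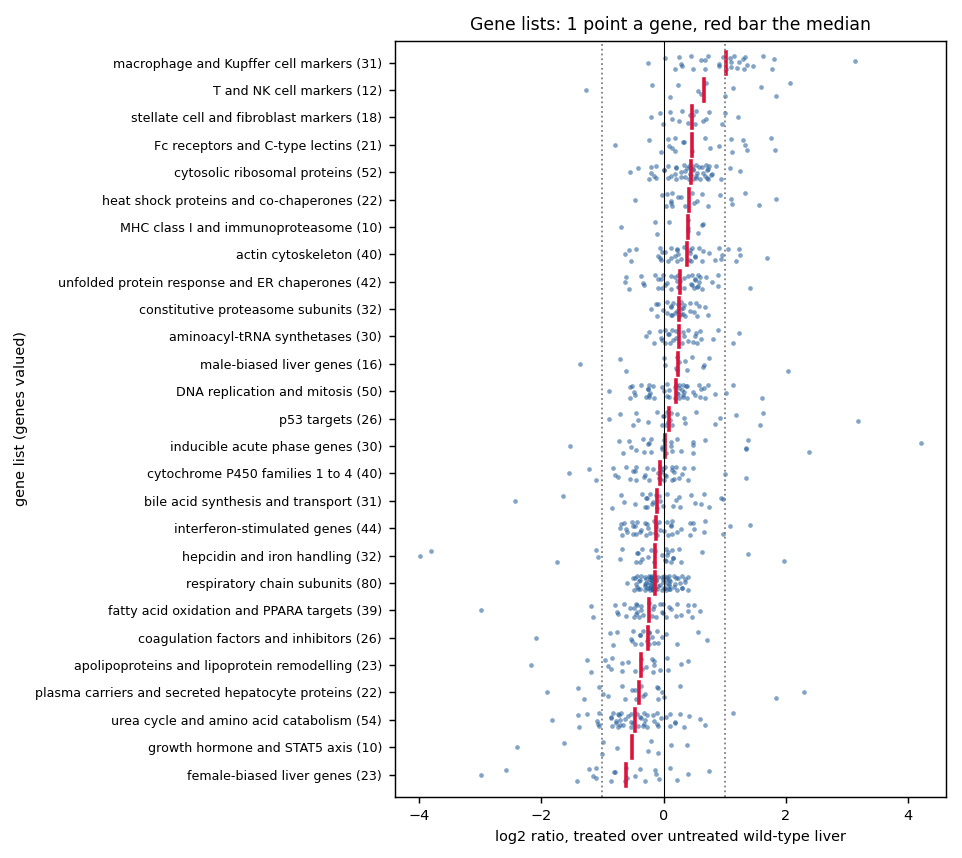
Log2 ratios of LPS/GalN-treated over untreated wild-type liver for the members of 27 gene lists, with the number of genes valued in brackets. Each point is a gene, the red bar is the list's median, and dotted lines mark 2-fold. Medians run from 1.02 for macrophage and Kupffer cell markers to -0.62 for female-biased liver genes.

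Markers of macrophages and Kupffer cells had the highest median of any list, 1.02, with 16 of 31 genes at least 2-fold higher, 0 lower and 30 above 0. Marco, a scavenger receptor of macrophages, led with 3.13, and stood at 2.04 over untreated TMX-/- liver. Cathepsin S (Ctss) stood at 1.62, Aif1 at 1.47, the haemoglobin scavenger receptor Cd163 at 1.37 and the adaptor Tyrobp at 1.32. Csf1r, the receptor for the macrophage growth factor, stood at 0.03, and the mannose receptor Mrc1 at -0.26. Over untreated TMX-/- liver the list's median was 0.37, with 2 genes at least 2-fold higher. On the untreated TMX-/- array, which has the same reference, the median was 0.67. In whole liver, more cells of a type and more RNA per cell cannot be told apart.

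Receptors that macrophages share with other myeloid cells followed the same pattern. Fc receptors and C-type lectins had a median of 0.46, with 7 of 21 higher and 0 lower, and a median of 0.00 over untreated TMX-/- liver. The receptors for immunoglobulin G stood at 1.76 (Fcgr4), 1.34 (Fcgr3), 0.91 (Fcgr1) and 0.33 (Fcgr2b, the inhibitory one), and over untreated TMX-/- liver at 0.07, 0.29, -0.40 and -0.24. Fcer1g, the signalling chain they share, stood at 1.11 and 0.52. The complement list had its median at 0.02, which was -0.02 without centring, but its 3 higher genes were C1qa (1.23), C1qb (1.10) and C1qc (1.08), the chains of C1q, which macrophages make. The other complement genes lay within 2-fold on both sides, from C4a (-0.82) and C3 (-0.73) to C6 (0.75), C8a (0.87) and Cfp (0.96).

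Lymphocyte genes were split by the comparison. T and NK cell markers had a median of 0.66 over untreated wild-type liver and of -0.07 over untreated TMX-/- liver, with 5 of 12 higher and 1 lower in the former. Ccl5, a chemokine of T and NK cells, stood at 2.08 and stayed at 1.41 over untreated TMX-/- liver. Nkg7, a granule protein of cytotoxic lymphocytes, stood at 1.60 and then at -0.61, and Txk, a T cell kinase, at 1.01 and then at -1.14. Zap70, the T cell receptor kinase, stood at -1.27 and -1.10, opposite to the receptor chains Cd3g (0.62) and Cd3d (0.56). B and plasma cell markers lay around 0, with a median of -0.03 and 0 of 7 at 2-fold. Dendritic cell markers had a median of 0.44 over 7 genes, none at 2-fold.

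Of the neutrophil markers, 5 had a value on all 3 arrays, with a median of -0.30 that turned to 0.44 over untreated TMX-/- liver. Of 6 others that were blank on another array 3 were at least 2-fold higher. Of all genes blank on another array 25.7% were, around a median of 0.47. With the 6 others included the median of the neutrophil list was 0.77. S100a9 and S100a8, which pair as calprotectin in neutrophils and monocytes, stood at 1.80 and 0.82, and at 1.98 and 0.53 over untreated TMX-/- liver. Ly6g, the marker that defines mouse neutrophils, stood at -0.89, Retnlg at -0.36 and the receptor Csf3r at -0.30. Monocyte markers had a median of 0.19, from Ly6c1 (0.98) to Csf3r, with 0 of 8 at 2-fold.

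Acute phase genes had their median at 0.02, or -0.08 after centring on housekeeping genes, so it did not lie high as a group. It held some of the highest single genes: 5 of 30 were at least 2-fold higher and 1 lower. Besides Saa3 and Orm2 these were Cp, the copper protein ceruloplasmin (1.39, but 0.12 over untreated TMX-/- liver), Saa2 (1.35 and 1.10) and Lcn2, the iron-siderophore binder lipocalin 2 (1.35 and 1.30). Within the serum amyloid A family, Saa3, Saa2 and the constitutive Saa4 stood at 4.22, 1.35 and 0.28. Within the orosomucoid family, Orm2 stood at 2.38 while Orm1 and Orm3 stood at -0.03 and 0.12. These are close paralogs, and whether the probes tell them apart could not be checked. The haptoglobin gene Hp (0.03), Lbp (0.23) and the pentraxins Crp (0.48) and Apcs (0.12) lay within 1.5-fold. Nnmt, nicotinamide N-methyltransferase, was the lower gene, at -1.53.

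Most inflammatory ligands valued on all 3 arrays lay within 2-fold of the reference at this time. Among chemokines 4 of 19 were higher, against 2.8% of all genes, and 0 lower, around a median of 0.11. The higher ones were Ccl5, Ccl6 (1.44), the eosinophil attractant Ccl24 (1.28) and Cxcl13 (1.24), an attractant of B cells. Over untreated TMX-/- liver 2 of the 19 were higher, Ccl5 (1.41) and Cxcl13 (1.20), against 2.08% of all genes, and 0 lower. A further 3 chemokines were blank on another array and all 3 were higher, against 25.7% of such genes. For 7 more this array had no value. Ccl2, the main attractant of monocytes, stood at -0.01, and the interferon-induced Cxcl10 at -0.62. Cytokines and their receptors had a median of -0.06 with 0 of 35 higher. Il1b, which encodes interleukin-1 beta, stood at -0.50. The 3 lower genes were the signal inhibitors Cish (-2.39) and Socs2 (-1.63) and the receptor Il15ra (-1.11).

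Interferon-stimulated genes had a median of -0.12, with 2 of 44 higher. Oas1a, an antiviral enzyme, stood at 1.42 but at -0.04 over untreated TMX-/- liver, and Irf8, a transcription factor of myeloid cells, at 1.10 and 0.95. Classical members lay low within 2-fold, such as Ifit3 (-0.70) and Mx1 (-0.68). Of the Toll-like receptor and NF-kB genes 3 of 34 were higher, the adhesion molecule Vcam1 (1.58), Tlr1 (1.31) and Tlr3 (1.10), around a median of 0.10. In the comparison with untreated TMX-/- liver 1 of these 34 was higher, at 1.09, and 0 lower, around a median of 0.07. MHC class I processing genes had a median of 0.40 and 0.43 in the 2 comparisons, with 0 of 10 at 2-fold, led by the peptide transporter Tap2 (0.65) and the immunoproteasome subunit Psmb8 (0.64). B2m, their light chain, stood at -0.69. Of the 5 MHC class II genes, the processing enzymes Ctss and Ifi30 stood at 1.62 and 1.46 while H2-Aa and the invariant chain Cd74 stood at 0.24 and 0.27. None of the 5 was at 2-fold over untreated TMX-/- liver, where the highest stood at 0.585.

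Targets of p53, the DNA damage and nucleolar stress regulator, did not lie high as a list, but Cdkn1a was accompanied by a few of them. The median was 0.09, or -0.01 after centring on housekeeping genes, with 4 of 26 higher and 0 lower. The others were Trp53inp1 (1.64), Phlda3 (1.58) and the apoptosome gene Apaf1 (1.18), which stood at 1.39, 1.26 and 0.57 over untreated TMX-/- liver. Gadd45a, often counted with them, stood at -0.90. Its relatives Gadd45b and Gadd45g stood at 1.68 and 1.22, and both lay within 2-fold over untreated TMX-/- liver.

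Among genes of cell death, whose members partly overlap with the p53 list, 5 of 31 were higher and 0 lower, around a median of 0.07 that became -0.03 with housekeeping centring. They were Gadd45b, Gadd45g, Apaf1, and Ripk3 (1.12) and Mlkl (1.06), the kinase and the pore-forming effector of necroptosis, a programmed necrosis. Over untreated TMX-/- liver 1 of the 31 was higher, Ripk3 at 1.02, and 0 lower, and Mlkl stood at 0.62. The adaptors of death receptor signalling lay the other way within 2-fold: Fadd stood at -0.80, Ripk1 at -0.74 and Tradd at -0.61.

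Egr1 stood nearly alone among immediate early genes, which growth factors and stress switch on within minutes. Of 26 genes, Egr1 (2.68) and the phosphatase gene Dusp1 (1.47) were higher and Phlda1 (-1.56) lower, and Junb stood at -0.59. The list's median was 0.11.

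Heat shock proteins and their co-chaperones lay high as a group, by amounts close to those over untreated TMX-/- liver. The median was 0.41, and 0.45 in the latter comparison, with 5 of 22 higher, 0 lower and 20 above 0. Hsp90aa1, the inducible cytosolic HSP90, stood at 1.84 and 1.74. Hspb1, the small heat shock protein HSP27, stood at 1.56 and 1.93, and Stip1, which links HSP70 to HSP90, at 1.13 and 1.28. Chordc1, an HSP90 co-chaperone, stood at 1.33 and 0.68, and Hspa4l, an HSP70 exchange factor, at 1.11 and 0.88. The constitutive Hspa8 stood at 0.05 and the regulator Hsf1 at 0.04.

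Heat shock factor binds arrays of the unit nGAAn in alternating orientation. The promoter of Chordc1 is shown because it was 1 of 2 among the 16 list members with a promoter in the RefSeq table (build GRCm38.p6, 300 bases around the start) that held the letters GAANNTTCNNGAA on either strand, the other being Hspd1. Of 32851 promoters, 0.603% held them. The window lies on the plus strand at chr9:18292017-18292316, and the capitals mark 3 overlapping matches:
Chordc1: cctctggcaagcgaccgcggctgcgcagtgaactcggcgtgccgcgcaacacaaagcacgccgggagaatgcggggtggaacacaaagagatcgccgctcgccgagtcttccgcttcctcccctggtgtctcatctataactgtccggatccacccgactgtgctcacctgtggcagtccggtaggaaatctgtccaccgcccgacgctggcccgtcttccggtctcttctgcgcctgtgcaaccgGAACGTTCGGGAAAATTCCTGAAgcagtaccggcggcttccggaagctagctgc
A match describes these letters and not a bound site.

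Chaperones of the endoplasmic reticulum lay slightly high. The unfolded protein response, by which this compartment answers misfolded protein through ATF6, IRE1 and PERK, had a list median of 0.26, and of 0.20 over untreated TMX-/- liver. Of its 42 genes 30 lay above 0 and 1 was at 2-fold. That gene was Creld2, a secreted chaperone-like factor, at 1.42 and 0.62. Herpud1 (0.90), Manf (0.89), the central chaperone gene Hspa5 (0.80) and the disulfide isomerase gene Pdia3 (0.70) followed. The transcription factor gene Xbp1 stood at -0.57, and the PERK-branch targets Chac1 and Trib3 at -0.62 and -0.63. These are the ends of the list, and 12 of its genes lay below 0.

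ATF6 and XBP1 act through the ER stress response element, here searched as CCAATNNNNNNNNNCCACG on both strands. It stood in 39 of 32851 promoters (0.119%) and in 9 of the 38 list members that had one, namely Calr, Canx, Creld2, Dnajc3, Ero1b, Hsp90b1, Hspa5, Pdia6 and Syvn1. The promoters of the highest member and of Hspa5 are shown with the element in capitals, Creld2 at chr15:88819396-88819695 and Hspa5 at chr2:34771840-34772139, both on the plus strand, and the element lies in opposite orientations in the pair:
Creld2: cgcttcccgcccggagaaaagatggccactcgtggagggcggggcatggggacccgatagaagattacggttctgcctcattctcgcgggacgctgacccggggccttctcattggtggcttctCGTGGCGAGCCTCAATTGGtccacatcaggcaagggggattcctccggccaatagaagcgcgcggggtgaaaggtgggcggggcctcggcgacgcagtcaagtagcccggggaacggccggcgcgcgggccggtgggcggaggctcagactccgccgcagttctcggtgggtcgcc
Hspa5: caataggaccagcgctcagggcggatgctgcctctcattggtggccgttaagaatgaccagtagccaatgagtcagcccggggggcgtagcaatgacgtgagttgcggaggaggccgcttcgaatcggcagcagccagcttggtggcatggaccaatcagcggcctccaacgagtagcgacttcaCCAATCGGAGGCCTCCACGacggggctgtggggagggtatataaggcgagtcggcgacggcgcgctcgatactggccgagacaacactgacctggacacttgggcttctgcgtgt

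Antioxidant genes under the factor NRF2 had a median of 0.12, with 2 of 36 higher and 1 lower. Ugdh, which makes UDP-glucuronate from UDP-glucose, stood at 1.06 and 1.33, and Gclc, the catalytic subunit of glutathione synthesis, at 1.02 and 0.60. Ftl1, the ferritin light chain, stood at -1.11 and -0.28. Among glutathione transferases Gsta2 was the highest over untreated wild-type liver, at 1.98, and stood at 1.14 over untreated TMX-/- liver, where Gstp1 was the highest at 1.29. Their median was -0.18 over 19 genes and turned to 0.15 with the genes blank on another array, which had a median of 0.47 as a whole. Hypoxia-inducible genes had a median of 0.19, with P4ha2 (1.69), Ddit4 (1.25) and Epas1 (1.25) higher and Vegfa at -0.71. Of these 18 genes 1 was higher over untreated TMX-/- liver, at 1.32, and 0 lower, around a median of 0.15.

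Genes of protein synthesis and turnover lay high by small, shared amounts. Cytosolic ribosomal proteins had a median of 0.45 (0.38 over untreated TMX-/- liver) with 44 of 52 above 0, yet 2 of them at 2-fold, Rpl22l1 (1.25) and Rpl17 (1.08). Subunits of the constitutive proteasome had a median of 0.26 (0.25) with 27 of 32 above 0 and 0 at 2-fold, led by Psma7 at 0.73. Aminoacyl-tRNA synthetases, which charge tRNAs, had a median of 0.26 (0.18) with 24 of 30 above 0. Aimp1 (1.24) and Farsb (1.13) were at 2-fold. The other lists of this kind lay closer to 0. Ribosome biogenesis factors stood at 0.16 but at -0.07 over untreated TMX-/- liver, and mitochondrial ribosomal proteins at 0.08, or at -0.02 after centring on housekeeping genes. Subunits of the respiratory chain, which makes the proton gradient for ATP synthesis, had a median of -0.15 with 27 of 80 above 0 and 0 at 2-fold. Except for the cytosolic ribosomal proteins, these medians are smaller than the SD of a single probe (0.42). That SD describes 1 probe and not a median over many genes, whose error was not estimated.

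The secretory products of hepatocytes lay low. Plasma carriers and other secreted proteins had a median of -0.41, with 4 of 22 lower and 2 higher, and of -0.27 over untreated TMX-/- liver. The lower ones were Serpina6, corticosteroid-binding globulin (-1.91 and -1.08), transthyretin (Ttr, -1.39 and -0.60), fetuin-A (Ahsg, -1.30 and -0.37) and albumin (Alb, -1.06 and -0.32). The higher ones were Serpina7 and Igfbp1, an insulin-like growth factor binder (1.84 and 0.70). Apolipoproteins and lipoprotein-remodelling genes had a median of -0.36 with 3 of 23 lower, Apoa2 (-2.17 and -0.75), Apoa5 (-1.26 and -0.79) and Apoe (-1.19 and -0.45). Their median was -0.17 over untreated TMX-/- liver, with 0 genes at 2-fold. Apob, the structural protein of very low density lipoprotein, stood at 0.41. Coagulation factors had a median of -0.26 with 4 of 26 above 0, and of -0.10 over untreated TMX-/- liver, and F3 was their gene at 2-fold. F10 and F7, factors X and VII made by hepatocytes, stood at -0.88 and -0.76, and at -0.01 and -0.33 over untreated TMX-/- liver.

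Amino acid catabolism lay low as well. Genes of the urea cycle and amino acid breakdown had a median of -0.47, with 8 of 54 lower and 1 higher. Their median over untreated TMX-/- liver was -0.19, with 2 of 54 lower (Oat and Got1) and 0 higher. Oat, ornithine aminotransferase, stood at -1.83 and -1.62, the aspartate aminotransferase Got1 at -1.40 and -1.07, Hpd of tyrosine breakdown at -1.38 and the glycine methyltransferase Gnmt at -1.26. In the urea cycle proper, Asl stood at -1.08, Otc at -0.58, Arg1 at -0.28 and Cps1 at -0.27. Glul, glutamine synthetase of the hepatocytes around the central vein, stood at 1.15 over untreated wild-type and -0.04 over untreated TMX-/- liver.

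General markers of hepatocytes, as a measure of that cell type, had a median of -0.24 over untreated wild-type liver, with 4 of 20 lower and 1 higher. Their median over untreated TMX-/- liver was 0.03, with 0 lower and 0 higher. Over untreated wild-type liver they ranged from Cyp2e1 (-1.54) to Glul, and the regulator Hnf4a stood at -0.04. Periportal and pericentral markers had medians of -0.28 and -0.18. The part of hepatocyte number in the low lists was not tested. Hepatocyte transcription factors had a median of -0.17, with Cebpa (-1.11) and Onecut1 (-1.01) lower and Foxa3 (1.25) higher, and over untreated TMX-/- liver the median was 0.03.

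In bile acid synthesis 2 enzymes stood out from a list near 0. Cyp8b1 (-2.44 and -2.26) sets the ratio of bile acid species, and Cyp7a1 (-1.64 and -1.30) is rate-limiting for the pathway. The list's median was -0.11 over 31 genes, or 0.03 over untreated TMX-/- liver, with 0 higher. Nr0b2, the repressor SHP, which acts on both enzymes, stood at 0.98 and 0.52. The exporter subunit Slc51b stood at 0.94 and 1.11.

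Cytochrome P450 families 1 to 4, which oxidise drugs, steroids and fatty acids, had a median of -0.06, with 2 of 40 higher and 3 lower. The lower ones were Cyp2e1 (-1.54), Cyp2b9 (-1.22) and Cyp2b13 (-1.11), and the higher ones Cyp2d10 (1.36) and Cyp2j9 (1.01). Over untreated TMX-/- liver the list ran from -0.97 to 1.01 around a median of -0.08, with 1 of 40 higher and 0 lower. Cyp1a2 stood at 0.25. Members of a subfamily are similar in sequence, and their probes may not separate them.

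Lipid genes differed by pathway. Peroxisomal and mitochondrial fatty acid oxidation with its PPARA targets had a median of -0.24 and -0.30 in the 2 comparisons, with 3 of 39 lower and 0 higher. Besides Acot3 these were Fabp1, the liver fatty acid-binding protein (-1.18 and -0.35), and Acot4 (-1.15 and -0.68), while Cpt1a, the gate of mitochondrial oxidation, stood at -0.76 and -0.80. Ppara itself stood at 0.59 and -0.50. Lipogenesis and droplet genes had a median of 0.00 with members on both sides, and of 0.27 over untreated TMX-/- liver with 24 of 34 above 0. The lipoprotein lipase Lpl (1.56 and 1.08) and the phosphatidate phosphatase Lpin1 (1.30 and 0.42) were higher, and the lipase inhibitor G0s2 (-1.26 and -1.13) and the desaturase Scd1 (-1.13 and -0.92) lower. Cholesterol synthesis had a median of -0.07 with 0 of 22 at 2-fold, and of 0.49 over untreated TMX-/- liver, where the list itself stood at -0.40 to the reference.

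Glycolysis and glucose production had a median of 0.09, or -0.01 after centring on housekeeping genes, with 3 of 36 higher and 0 lower. Beside Igfbp1 these were Pfkfb3, which makes the activator of glycolysis (1.66 and 0.62), and Pkm, a pyruvate kinase of non-hepatocyte type (1.04 and 0.12). The pathway that galactosamine loads, pyrimidine, uridine and galactose metabolism, had a median of 0.00, with Ugdh as its gene at 2-fold and 0 of 31 lower. Dpyd (-0.96) and the liver uridine phosphorylase Upp2 (-0.88) were the lowest, and Cad, which starts pyrimidine synthesis, stood at 0.49 and 0.77.

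Liver genes that differ between the sexes lay apart. Growth hormone, released in pulses in males and more evenly in females, sets this pattern through STAT5, and these mice were female. Female-biased genes had the lowest median of all lists, -0.62, with 7 of 23 lower, 0 higher and 4 above 0, and -0.33 over untreated TMX-/- liver. The lower genes were Acot3 (-2.99 and -2.64), Cyp17a1 (-2.58 and -2.07), the oxidase Hao2 (-1.42 and -0.93), Cyp2b9 (-1.22 and -0.97), Acot4 (-1.15 and -0.68), Cyp2b13 (-1.11 and -0.62) and the peroxisomal transporter Abcd2 (-1.10 and -1.32).

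Male-biased genes had a median of 0.23, with 13 of 16 above 0 but 1 at 2-fold in each direction. Over untreated TMX-/- liver their median was 0.21, with 10 of 16 above 0, 2 at least 2-fold higher and 0 lower. Hsd3b5, a male-biased hydroxysteroid dehydrogenase, stood at 2.04 and 2.67, and the sulfotransferase Sult5a1 at -1.37 and -0.59. The other Hsd3b genes stood at 0.88 (Hsd3b4), 0.52 (Hsd3b3), 0.41 (Hsd3b6), 0.39 (Hsd3b1), -0.28 (Hsd3b7) and -0.41 (Hsd3b2). Most of them are near-identical copies, and whether the probes tell them apart could not be checked. Of Y-linked genes, which female mice lack, Kdm5d stood at -0.38, and Zfy1 stood at 1.25 among the genes blank on another array.

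Immediate targets of STAT5 were low. Cish, an inhibitor that STAT5 induces, stood at -2.39 (5.26-fold lower) on the treated wild-type array, at -1.05 on the untreated TMX-/- array and at -1.70 on the treated TMX-/- array. All 3 livers lay below the reference, the treated wild-type liver the furthest. Socs2, the inhibitor of growth hormone signalling, stood at -1.63 and at -1.78 over untreated TMX-/- liver. Onecut1, a female-biased factor under growth hormone, stood at -1.01 and -1.35, and Igfals, which carries insulin-like growth factor in plasma, at -0.99 and -0.67. The list of this axis had a median of -0.51 and -0.26, with 3 of 10 lower and 0 higher. The receptor Ghr (-0.20), Stat5b (0.39) and Igf1 (-0.09) lay within 1.5-fold. Bcl6, a repressor that STAT5 holds down and that opposes it on sex-biased genes, stood at 2.87, and at 2.22 over untreated TMX-/- liver. It had no value on the treated TMX-/- array and so is not among the 10179 genes. Of the genes blank on another array 25.7% were at least 2-fold higher and 1.11% lower. Bcl6 was named as 1 of the 10 highest of them, and its link to the low STAT5 targets was not tested.

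STAT5 binds TTCNNNGAA, and the Cish promoter is known for clustered copies of it. The window from RefSeq (GRCm38.p6, plus strand, chr9:107296409-107296708) is shown because Cish and Igfals were the 2 of 9 list members with a promoter that held the letters on either strand. Of all 32851 promoters 8.3% held them. The capitals mark 2 matches:
Cish: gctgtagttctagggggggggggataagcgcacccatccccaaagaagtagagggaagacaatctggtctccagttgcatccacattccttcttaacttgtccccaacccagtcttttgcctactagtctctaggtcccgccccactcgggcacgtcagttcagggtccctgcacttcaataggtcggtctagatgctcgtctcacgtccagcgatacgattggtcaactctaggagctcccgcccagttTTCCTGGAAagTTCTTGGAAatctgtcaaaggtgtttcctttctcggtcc

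Of 32 iron genes 5 were lower and 2 higher, with the hepcidins the furthest from 0. Hepcidin is the hepatocyte hormone that closes the iron exporter ferroportin. Bone morphogenetic protein signalling induces it when iron is ample, and interleukin-6 induces it through STAT3 in inflammation. Hamp stood at -3.99 on the treated wild-type array, -1.27 on the untreated TMX-/- array and -0.88 on the treated TMX-/- array, and Hamp2 at -3.80, -1.02 and -3.23. All 3 livers lay below the reference for both genes, and the treated wild-type liver was the lowest for each.

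Other genes of iron balance lay on both sides of 0. Targets of bone morphogenetic protein signalling stood at -0.71 (Atoh8), -0.35 (Id1), -0.36 (Smad7) and -0.03 (Smad6), and Bmper, a modulator of that signalling, at -1.08. The ligand gene Bmp6 stood at 0.15. Alas1, the first enzyme of haem synthesis, stood at -1.74 and -1.90, and Ftl1 at -1.11. Tfrc, the transferrin receptor, stood at 1.97 and 1.72, Slc40a1, ferroportin, at 0.29 and -0.18, transferrin itself (Trf) at -0.69 and -0.33, and Tfr2 at -0.25 and -0.31. Cp, listed with the acute phase, was the other higher gene, and the list had a median of -0.14.

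Both hepcidin promoters are shown because these rows were the lowest of all and the genes are near copies. Whether their probes tell Hamp from Hamp2 could not be checked, so the pair may not be separate measurements. Aligned, they agree in 276 of 303 columns (91.1%). Both are on the minus strand of GRCm38.p6 in RefSeq, Hamp at chr7:30943980-30944279 and Hamp2 at chr7:30924132-30924431. Capitals mark the letters GGCGCC of the bone morphogenetic protein response element, found in Hamp and not in this window of Hamp2, and the STAT letters TTCNNNGAA, found in both:
Hamp: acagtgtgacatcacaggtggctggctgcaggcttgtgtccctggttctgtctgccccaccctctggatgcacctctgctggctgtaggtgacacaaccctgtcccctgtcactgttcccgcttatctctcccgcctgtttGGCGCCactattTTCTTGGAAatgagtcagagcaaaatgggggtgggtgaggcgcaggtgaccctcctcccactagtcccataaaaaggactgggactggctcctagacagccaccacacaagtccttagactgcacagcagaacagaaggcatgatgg
Hamp2: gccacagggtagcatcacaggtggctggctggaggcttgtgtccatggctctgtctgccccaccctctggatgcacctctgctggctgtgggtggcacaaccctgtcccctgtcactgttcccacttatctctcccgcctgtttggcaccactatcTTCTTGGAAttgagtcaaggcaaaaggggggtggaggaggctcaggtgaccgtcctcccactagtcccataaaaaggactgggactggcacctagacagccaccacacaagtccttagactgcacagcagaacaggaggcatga
Both strands were searched. GGCGCC stands in 11.9% of the 32851 promoters and TTCNNNGAA in 8.3%, so neither is rare.

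Clock genes lay on both sides. In the circadian clock, BMAL1 (encoded by Arntl) and CLOCK drive Per, Cry and output genes such as Dbp through E-boxes, and REV-ERB proteins repress Arntl. Arntl stood at 2.07 (4.21-fold higher), at -0.62 on the untreated TMX-/- array and at 2.87 on the treated TMX-/- array, so both treated livers lay above both untreated ones. Clock stood at 0.71 and 0.65, and Cry1 at 0.66 and 1.08. The output gene Dbp stood at -1.90 and -1.17 and Ciart, a repressor that BMAL1 drives, at -1.46 and -1.49. Per1, Per2 and Nr1d2, which encodes a REV-ERB, lay closer at 0.36, -0.50 and -0.07. The list's median was -0.11, or 0.03 over untreated TMX-/- liver, with 1 of 20 higher and 2 lower. Arntl normally peaks at another time of day than Dbp, and the labels do not state the hour at which a liver was taken.

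The promoters of the gene that was high and of the output gene Ciart are shown because they hold the letters of opposite arms of this loop. Arntl holds ANNTAGGTCA, the ROR and REV-ERB element, found in 0.7% of the 32851 promoters and in 1 of 16 list members. Ciart holds 3 copies of the E-box CACGTG, found in 7.15% of promoters and in 5 of the 16 (Ciart, Cry1, Per1, Tef and Tspan4). Both strands were searched. Arntl is on the plus strand at chr7:113207261-113207560, where of 2 starts in the table the one with a match was taken, and Ciart on the minus strand at chr3:95882179-95882478:
Arntl: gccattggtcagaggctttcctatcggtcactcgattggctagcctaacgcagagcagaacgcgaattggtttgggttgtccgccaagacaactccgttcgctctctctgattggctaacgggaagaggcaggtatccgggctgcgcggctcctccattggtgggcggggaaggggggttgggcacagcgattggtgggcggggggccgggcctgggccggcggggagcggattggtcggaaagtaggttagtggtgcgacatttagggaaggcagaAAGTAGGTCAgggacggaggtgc
Ciart: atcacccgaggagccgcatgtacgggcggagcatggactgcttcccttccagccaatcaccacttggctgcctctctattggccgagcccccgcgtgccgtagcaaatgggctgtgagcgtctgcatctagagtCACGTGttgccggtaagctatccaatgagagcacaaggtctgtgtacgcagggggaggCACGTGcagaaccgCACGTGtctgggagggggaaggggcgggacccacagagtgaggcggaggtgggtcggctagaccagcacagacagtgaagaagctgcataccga

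**Figure D4:**
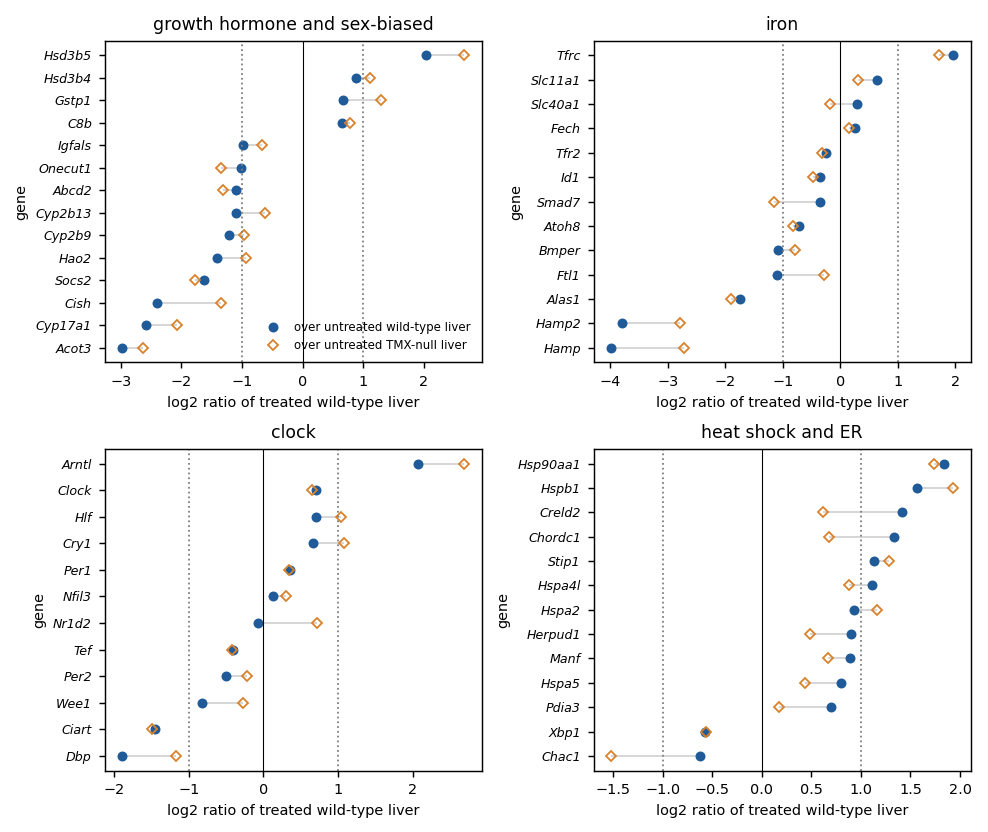
Log2 ratios of named genes in 4 groups, growth hormone and sex-biased genes, iron genes, clock genes, and heat shock and ER genes. Filled circles give treated wild-type over untreated wild-type liver, open diamonds treated wild-type over untreated TMX-/- liver, and dotted lines mark 2-fold. For Hsd3b5, Tfrc, Arntl and Hsp90aa1 on the high side and Acot3, Hamp, Alas1 and Ciart on the low side both symbols lie beyond 2-fold.

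Genes of DNA replication and mitosis had a median of 0.21 (0.12 over untreated TMX-/- liver), with 3 of 50 higher and 0 lower. Ccne1, the cyclin of the G1 to S transition, stood at 1.62 and 0.45, Mcm6, a helicase subunit, at 1.14 and 1.17, and the topoisomerase Top2a at 1.02 and 0.80. The mitotic activator Cdc20 stood at -0.89 and the proliferation marker Mki67 at 0.73 and 0.18.

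Cytoskeletal genes lay high, with a median of 0.38 and 0.32 in the 2 comparisons, 5 of 40 higher and 0 lower. The tubulins Tubb2a (1.70 and 2.18) and Tubb4b (1.24 and 1.27) and the membrane linker Ezr (1.06 and 0.89) kept their size over untreated TMX-/- liver. The actin-binding Tmsb4x (1.26 and 0.47) and the leukocyte protein Lsp1 (1.19 and 0.73) did so less. Stellate cell and fibroblast markers had a median of 0.46 but of 0.07 over untreated TMX-/- liver. Lum, a matrix proteoglycan, stood at 1.23 and 0.58, and Acta2, smooth muscle actin, at 0.96 and 0.94. Extracellular matrix genes had a median of 0.12, or -0.04 over untreated TMX-/- liver, with Lum as the gene at 2-fold, while the basement membrane collagen Col4a1 stood at -0.66.

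Other cell types showed little shared shift. Markers of sinusoidal endothelium had a median of 0.11, from the lectin Clec1b (1.37) to the nuclease Dnase1l3 (-1.20). Cholangiocyte and progenitor markers had a median of -0.10, with 0 of 13 at 2-fold and the bile duct keratin Krt19 at -0.92. Erythroid and platelet markers split, with Tfrc and the platelet chemokine Pf4 (1.01) higher and Klf1 (-1.34) and Gp1bb (-1.13) lower. The 73 leukocyte markers of all kinds held 23 higher genes and 1 lower gene over untreated wild-type liver, against 2.8% and 1.75% of all genes. They held 5 higher and 2 lower genes over untreated TMX-/- liver, against 2.08% and 1.98%.

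Genes without a value on another array need separate reading. Of these 2159 genes, 555 (25.7%) were at least 2-fold higher and 24 (1.11%) lower, around a median of 0.47, and of the 860 valued on this array alone 732 (85.1%) lay above 0. The rule for blanks is unknown, so these shares describe how such values were kept as much as the liver. The olfactory, vomeronasal and taste receptors among these genes also lay mostly to the high side at 2-fold, with 32 of 142 higher and 2 lower. The next 4 genes were picked from the 555 higher ones because they are known from such injury. The monocyte attractant Ccl7 stood at 2.52, the receptor Ccr2 at 2.03, the macrophage elastase Mmp12 at 2.28 and the protease inhibitor Timp1 at 1.79, and all 4 stood still higher on the treated TMX-/- array, at 5.96, 4.18, 5.12 and 4.08. Fam98b (3.25) and Sprr4 (3.13) were the highest of these genes, and others near the top were Fgf13 (2.88), Bcl6 (2.87), Dtl (2.84) and Gpr22 (2.84). Dtl, a substrate receptor of the ubiquitin ligase that acts in replication, and the cell cycle factor E2f8 (2.45) had no value on the TMX-/- arrays. The lowest were the transcription factor Foxq1 (-1.80), Olfr483 (-1.59), Eaf2 (-1.43) and P2ry1 (-1.43).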

How the data were processed

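Liver RNA was amplified as amino allyl RNA, coupled to Cy3 or Cy5 and processed as Toray prescribes, per the labels' protocols. The authors deposited 1 table of signed log ratios for 3 arrays with 2 channels each, read here as log2. The base, numerator, image analysis, background correction, normalization and rule for blanks were not given in the sources used here. Deposited values ran from -6.40 to 8.04 with a median of -7.06e-06 on the treated wild-type array. No counts or intensities were at hand, so the number of arrays limits the precision.

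Of 23473 rows, 16890 had a value on this array, 16631 had 1 symbol in the platform annotation and 6842 none. Through the RefSeq synonyms of GRCm38.p6, 12622 symbols were current, 3947 were renamed and 62 were kept. Where a gene had more than 1 probe (86 genes) their mean was taken, and the array was centred on its gene median (-0.05). Genes at 2-fold were counted with no test. Named are the 25 highest and lowest genes, the 10 highest and lowest blank on another array, members of each list at 2-fold or among its 4 highest or lowest, and the hepcidin, Saa, Orm, Hsd3b and Fc gamma receptor families. Further genes were added after their values were seen, to give the level of well-known members. The lists and this measurement were chosen with earlier results of these data known. The script recovered shifts set in simulated data. Analysis used Python 3.11.15, pandas 2.3.3 and numpy 2.4.6. Alternatives changed the centring, the genes, the probe rule, the logarithm, the fold, the symbols and the untreated liver.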

Additional observations from a re-analysis of the deposited data

Results flagged for a closer look

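Among the genes named by rule, the 9 below are those whose ratio of treated over untreated liver lay beyond 2-fold on opposite sides in wild-type and in TMX-/- liver, given in that order. Over all 10179 genes 27 (0.265%) did so, 18 of them not named here, and 195 lay beyond 2-fold on the same side in both. The treated TMX-/- array had an SD of 1.04 over genes, against 0.48 on the treated wild-type array. Each ratio comes from 1 array or from a difference of 2 arrays, and the difference between genotypes was not tested. Higher in wild-type and lower in TMX-/- liver were Cyp2d10 (1.36 and -1.35), Glul (1.15 and -2.06), Hsd3b5 (2.04 and -1.48), Lpin1 (1.30 and -1.67), Nkg7 (1.60 and -1.42) and Ugt2b37, a glucuronosyltransferase (1.28 and -2.17). Lower in wild-type and higher in TMX-/- liver were Bmper (-1.08 and 1.38), Rrp9, a factor of ribosome biogenesis (-1.35 and 1.02), and Sult1e1, the oestrogen sulfotransferase (-1.21 and 4.88).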

How the results depend on the processing

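Neither further centring changed a count at 2-fold by more than 1.5 times. The 285 higher and 178 lower genes became 720 and 533 with a natural logarithm, 996 and 832 at 1.5-fold, and 51 and 27 at 3-fold. With every gene valued on the treated wild-type array, 765 were higher. List medians that moved by more than the SD of a single probe with that gene set were those of neutrophil markers (0.77) and of the X inactivation and Y-linked genes (0.38). Macrophage markers stood at 1.48 with a natural logarithm, and MHC class II at 1.46 with symbols as annotated. Over untreated TMX-/- liver the moved medians were cholesterol synthesis 0.49, metallothioneins -0.44, chemokine receptors -0.55, Fc receptors and C-type lectins 0.0004, macrophage markers 0.37, neutrophil markers 0.44, T and NK cell markers -0.075, and eosinophil, basophil and mast cell markers -0.39. Of 555 named genes, 236 moved in that comparison and 8 at 2-fold turned: Clec4n -0.24, Csad 0.041, Fcna -0.15, Glul -0.037, Klrk1 -0.0081, Nkg7 -0.61, Oas1a -0.045 and Txk -1.14. The cause was not tested. No paired analysis was possible because each group has 1 array. Signal over background is unknown, so dim genes could not be set aside.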

Other observations

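Some gene families drew attention only after their values were seen, and no test of them was made. The 6 Cct genes valued on all 3 arrays encode some of the subunits of the cytosolic chaperonin, which folds actin and tubulin. All 6 lay above 0 over untreated wild-type liver, with a median of 0.77. They also did so over untreated TMX-/- liver, with a median of 0.71. Cct5 was the highest at 1.06, followed by Cct2 (0.90), Cct8 (0.79), Cct7 (0.75), Cct3 (0.53) and Cct4 (0.21). Tubulin genes had medians of 0.58 and 0.81 over 9 genes, with 8 above 0 in each comparison. Broader Dnaj co-chaperones stood at 0.14 over 35 genes.

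Among families of blood cells, Ms4a genes had a median of 1.08 over 9 genes with 5 at least 2-fold higher. The 4 Cd300 receptor genes also had a median of 1.08, and the 3 Ear and Rnase2 ribonucleases one of 2.03. Over untreated TMX-/- liver these families stood at 0.28, 0.34 and 0.46. The chaperonin and tubulin medians were thus similar in size over either untreated liver, and those of the leukocyte families were smaller over the TMX-/- one.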
